A study of Mus musculus with 6 samples.

Results

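The antioxidant and NRF2 target genes examined here are 39 genes of redox defence, all 39 matched by symbol in a table of 24421 genes. These genes were chosen for their known roles, but with earlier results of these data known. They were measured in primary neural stem cells from E13.5 mouse embryos, grown as neurospheres (floating clusters of progenitors) with 20 ng/ml each of epidermal growth factor and fibroblast growth factor 2 in 20% oxygen. There were 3 libraries from Pml knockout cells (Pml-/-) and 3 from WT cells, all lysed on day 4 after dissociation. Pml encodes the promyelocytic leukemia protein, the scaffold of PML nuclear bodies. The labels give neither the deleted part of the gene nor the strain, and they do not say whether replicates came from separate cultures or embryos, so p-values measure the spread between these 6 samples. Each read is a 3′ tag, so a count does not scale with transcript length, and levels are compared between libraries but not between genes.

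NRF2, the product of Nfe2l2, is a transcription factor that KEAP1 holds in the cytoplasm and hands to a ubiquitin ligase. Oxidants and electrophiles modify cysteines of KEAP1, NRF2 then accumulates, pairs with small MAF proteins and binds antioxidant response elements (AREs) in promoters. Its targets make glutathione, reduce thioredoxin and supply NADPH, which together feed the enzymes that remove peroxides. Metallothioneins, small cysteine-rich proteins that bind zinc and copper, respond mainly to the metal-sensing factor MTF1 at metal response elements (MREs) and are abundant in astroglial cells. The series title names stress tolerance as a property affected by Pml.

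Promoter letters are shown for 5 members on which the results below turn: Me1 and Mgst1, with positive fold changes of knockout over WT, Gclm, with a negative one, and the metallothioneins Mt1 and Mt2, whose WT libraries were split. Each line is read 5′ to 3′ on the gene's strand, from 250 bases before the RefSeq start to 20 after it (GRCm38.p6), and capitals mark whole matches to an ARE core (TGACNNNGC) or an MRE core (TGCACNC or TGCGCNC) on either strand. Me1 and Mgst1 each have 2 entries in the promoter table, for separate starts; the entry with an ARE match is printed, and the other has 0 matches to either core.

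Me1 (chr9:86695895-86696164, minus strand): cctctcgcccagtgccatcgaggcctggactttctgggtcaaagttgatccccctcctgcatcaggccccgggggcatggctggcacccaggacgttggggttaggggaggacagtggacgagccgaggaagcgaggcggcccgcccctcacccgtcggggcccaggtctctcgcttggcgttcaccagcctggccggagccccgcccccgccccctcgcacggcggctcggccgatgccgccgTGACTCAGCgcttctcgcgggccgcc

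Mgst1 (chr6:138140277-138140546, plus strand): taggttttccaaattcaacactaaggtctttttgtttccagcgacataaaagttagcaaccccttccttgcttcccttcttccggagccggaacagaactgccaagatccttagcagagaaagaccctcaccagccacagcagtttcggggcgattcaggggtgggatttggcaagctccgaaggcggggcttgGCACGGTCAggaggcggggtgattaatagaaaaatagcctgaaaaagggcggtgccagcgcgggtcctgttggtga

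Gclm (chr3:122245307-122245576, plus strand): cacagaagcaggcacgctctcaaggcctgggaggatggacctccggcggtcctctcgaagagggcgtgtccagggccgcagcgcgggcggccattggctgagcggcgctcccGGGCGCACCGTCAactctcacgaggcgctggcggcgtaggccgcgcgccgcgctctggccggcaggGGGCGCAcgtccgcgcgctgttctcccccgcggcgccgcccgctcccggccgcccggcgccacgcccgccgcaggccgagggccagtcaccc

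Mt1 (chr8:94178839-94179108, plus strand): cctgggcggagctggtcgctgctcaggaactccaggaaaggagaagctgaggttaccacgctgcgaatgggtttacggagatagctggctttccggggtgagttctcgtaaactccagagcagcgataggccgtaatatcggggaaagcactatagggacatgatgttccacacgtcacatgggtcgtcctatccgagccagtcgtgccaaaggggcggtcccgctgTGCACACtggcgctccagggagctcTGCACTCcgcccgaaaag

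Mt2 (chr8:94172368-94172637, plus strand): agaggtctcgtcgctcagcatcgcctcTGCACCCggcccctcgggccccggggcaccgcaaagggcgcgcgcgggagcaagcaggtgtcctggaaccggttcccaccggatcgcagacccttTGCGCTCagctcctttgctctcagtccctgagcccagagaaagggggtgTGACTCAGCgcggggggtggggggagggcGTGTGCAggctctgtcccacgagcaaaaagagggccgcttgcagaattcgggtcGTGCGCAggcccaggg

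The Me1 match TGACTCAGC begins 6 bases before the printed start, and the same 9 letters begin 79 bases before the start of Mt2. Mgst1 has its ARE match on the opposite strand, 56 bases before the start, and Gclm has one 134 bases before, which shares letters with an MRE match. Of the 39 members, 34 had an entry in the promoter table, and 12 of these genes held an ARE core in the 300-base table window. By promoter that is 27.9% of 43 entries, against 12.4% of 32851 entries for all genes. Members were listed in part as NRF2 targets, so this share is not independent of how the list was made. An MRE core was in 30.2% of member entries and 25.7% of all entries. A match describes letters in this window and is not a measured binding site.

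Library depth was 4980638 to 5917505 counts in the knockout and 1775152 to 4413318 in WT. Of these counts, Rn45s, the precursor of ribosomal RNA, made up 14.6% to 17.6% in knockout libraries, and 41.9%, 39.8% and 19.6% in WT replicates 1, 2 and 3. Summed over 25 hepatocyte markers, all with reads, knockout libraries held 122 to 167 CPM (counts scaled to a common library total) taken outside Rn45s, while WT replicates 1, 2 and 3 held 720, 1179 and 230. Markers of neural stem cells, the labelled cell type, had reads for 12 of 12 genes and summed on that scale to 9369 to 12066 CPM in knockout and 8002 to 8833 CPM in WT. Microglia and macrophage markers, 12 of 13 with reads and Adgre1 at 0, summed to 1.07 to 4.92 CPM in knockout, against 4.29, 41.2 and 7.59 in WT replicates 1, 2 and 3. Every globin gene in the table was at 0. Of 11 endothelial and pericyte markers 6 had reads, summing to 16.3 to 22.8 CPM in knockout and 6.32 to 17.1 CPM in WT, while Cdh5, Tek, Cldn5, Emcn and Kcnj8 were at 0. Pml itself had 14, 23 and 5 reads in the knockout libraries, against 36, 35 and 44 in WT (log2 fold change -2.81, edgeR adjusted p 0.197), and a 3′ tag outside the deleted part would not report on the deletion.

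No antioxidant gene passed the test between genotypes. By edgeR's quasi-likelihood test 38 members had enough reads to be tested, and 0 reached a Benjamini-Hochberg adjusted p under 0.05, beside 0.00884% of all 11317 tested genes. At an unadjusted p under 0.05, 2 members were higher in the knockout (5.26%, beside 6.7% of all genes) and 7 were lower (18.4%, beside 9.19%). Members and further lists were chosen with earlier results of these data known. Shares and medians set beside all genes, here and below, are therefore description and not independent evidence. The 7 became 2, 0 and 1 without knockout replicates 1, 2 and 3, beside 6.03%, 4.1% and 4.92% of all genes in the same fits, and 2, 3 and 13 without WT replicates 1, 2 and 3, beside 6.26%, 8.36% and 16.5%. The 13 are 33.3% of 39 members, so that lower members and lower genes at large both grew in number without WT replicate 3. The 2 higher members became 2, 2 and 1 without those knockout libraries (5.05%, 2.44% and 3.18% of all genes) and 1, 3 and 6 without those WT libraries (4.72%, 8.63% and 15.4%). Knockout and WT libraries did not overlap for 3 tested members on the higher side and 7 on the lower side, where 12.3% and 11.3% of all genes were so placed. By DESeq2 0 members passed (beside 0.928% of genes higher and 1.97% lower), and by the edgeR exact test 0 (1.3% and 1.86%). In the authors' deposited table, of 39 members 0 had an adjusted p under 0.05, beside 2.94% of its 12349 genes, and the smallest was 0.0507 for Mgst1. In bulk libraries fewer cells of a type and less RNA per cell cannot be told apart.

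Fold changes of the members lay more often below 0 than above it. The log2 fold change of knockout over WT was negative for 27 of 38 members and positive for 11, with a median of -0.30, while over all tested genes the median was -0.0058, with 5695 below 0 and 5622 above. With library totals in place of library factors 14 were negative and 24 positive, and the median of all genes moved to 0.43 with them, which left the members' median 0.22 below it (difference -0.22). The members' median level, relative to each gene's mean over the 6 libraries, was -0.08, -0.14 and -0.05 (log2) in knockout replicates 1, 2 and 3, against 0.19, 0.33 and -0.03 in WT replicates 1, 2 and 3. WT replicate 3 was thus beside the knockout libraries, and WT replicates 1 and 2, with the higher Rn45s and hepatocyte shares, stood above. The part of those shares in the members' fold changes was not tested.

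**Figure D1:**
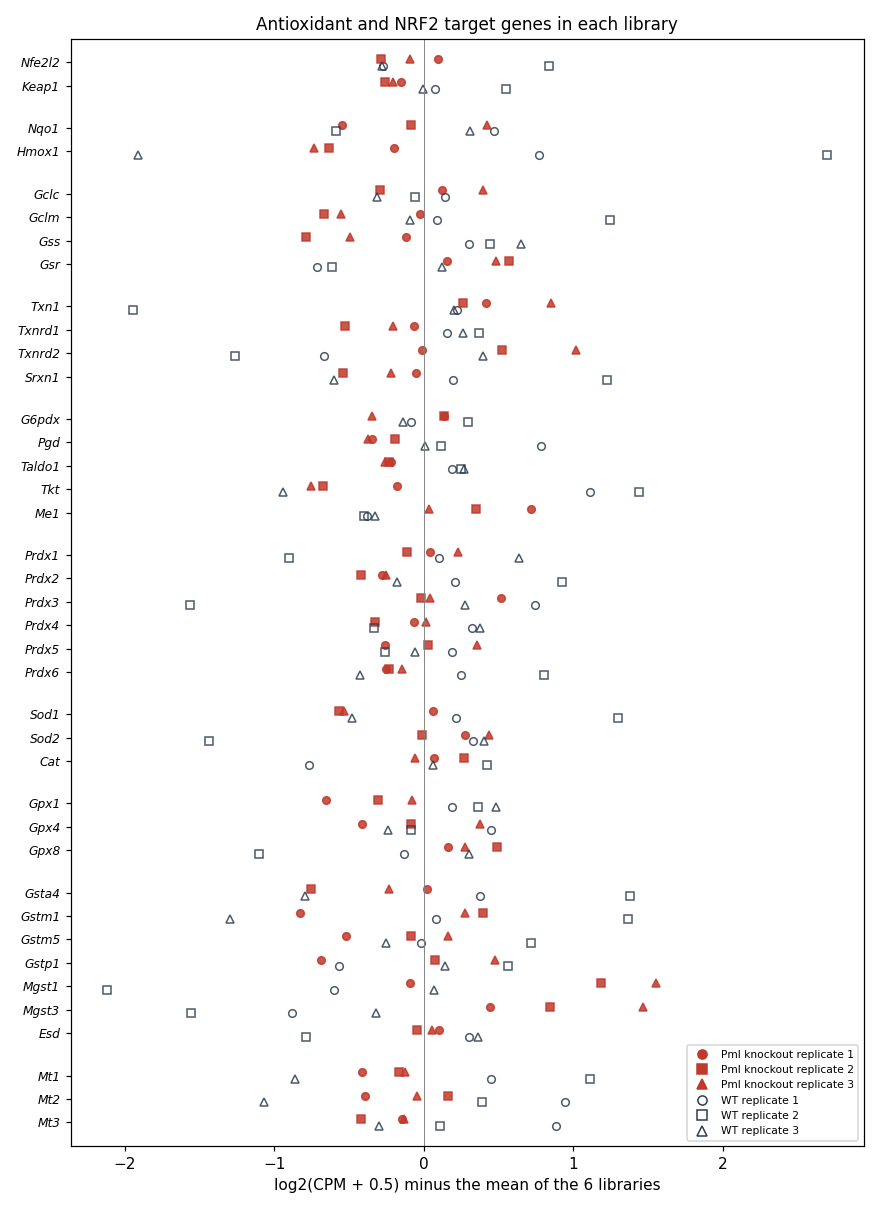
Level of each of the 39 members in each library, as log2(CPM + 0.5) minus the gene's mean over the 6 libraries, grouped by role from NRF2 (top) to metallothioneins (bottom). Filled red symbols are Pml knockout libraries, open dark symbols are WT libraries, and the shape gives the replicate. WT replicate 2 (open squares) is the highest WT library for 17 and the lowest for 12 of the 38 tested members. Over all 11317 tested genes it is the highest for 4320 and the lowest for 4699.

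NRF2 and its sensor did not pass the test. Levels from here on are CPM over all counts, scaled by the library factors of edgeR. Nfe2l2 (chromosome 2, 75675513 to 75704641, minus strand, GRCm38) had 141, 109 and 124 CPM in knockout replicates 1, 2 and 3, against 109.5, 237 and 109 CPM in WT replicates 1, 2 and 3. Its groups overlapped, and WT replicate 2 alone was high. The means were 125 ± 16.5 CPM in knockout and 152 ± 73.6 CPM in WT (SD, n = 3 each), and the log2 fold change of -0.27 (SE 0.338) had an edgeR adjusted p of 0.708. Without WT replicate 2 the sign turned (0.20). Keap1 (chromosome 9, 21229730 to 21239361, minus strand) had 129, 120.4 and 125 CPM in knockout, against 151, 211 and 143 in WT. All 3 knockout libraries were below all WT libraries, by a log2 fold change of -0.43 (SE 0.254, edgeR adjusted p 0.423) that turned to 0.055 with library totals. An antisense transcript overlaps the annotated 3′ end of Keap1, and without a stated strand setting its reads cannot be told apart.

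The quinone reductase and haem oxygenase genes, the textbook reporters of NRF2, had few reads. Nqo1, which reduces quinones, had 11, 15 and 25 reads in knockout libraries, against 13, 2 and 15 in WT. That is 2.62 ± 1.04 CPM in knockout and 2.96 ± 1.20 CPM in WT (SD, n = 3 each), with an edgeR adjusted p of 0.859 (log2 fold change -0.25, SE 0.618). The groups overlapped, and WT replicate 2 rests on 2 reads. Hmox1, which degrades haem, had 62, 41 and 42 reads in knockout, against 63, 91 and 11 in WT. As levels these were 9.33, 6.76 and 6.26 CPM in knockout, against 18.8, 72.7 and 2.50 CPM in WT. WT replicates 1 and 2 were above every knockout library and WT replicate 3 below every one. With an SE of 0.862, the log2 fold change of -1.98 reached p 0.0439 unadjusted and 0.303 after adjustment (edgeR). Against WT replicates 1 and 2 alone the log2 fold change was -2.54 and passed (adjusted p 0.0178; 0.0178 to 0.823 over the alternatives), and against WT replicate 3 alone it was 1.57. Hmox1 is also made by macrophages, whose markers had their highest sum in WT replicate 2. That sum was 44 reads, 21 of them from Csf1r. Ptprc, C1qa and C1qb had 9, 7 and 4 reads in WT replicate 2, each at its highest level in CPM there. Aif1, Tyrobp, Fcer1g, P2ry12 and C1qc were at 0 in that library. Cx3cr1, Trem2 and Cd68 had 1 read each there, against 15 for Cd68 in WT replicate 3. The part of macrophages was not tested.

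Genes of glutathione synthesis went separate ways. Gclc and Gclm encode the catalytic and modifier subunits of glutamate-cysteine ligase, the limiting enzyme. Gclc had 57.2, 42.7 and 69.2 CPM in knockout libraries, against 58.0, 50.4 and 42.2 in WT, with overlap (log2 fold change 0.17, SE 0.289, edgeR adjusted p 0.792). Gclm (chromosome 3, 122245557 to 122270732, plus strand) had 51.5, 32.8 and 35.5 CPM in knockout, against 55.7, 125 and 49.0 in WT. Knockout replicate 1 lay between WT replicates 3 and 1, and WT replicate 2 stood far above the rest. The log2 fold change was -0.92 (SE 0.390, unadjusted p 0.0404, edgeR adjusted p 0.295), and without WT replicate 2 it was -0.38. A pseudogene on the same strand overlaps the annotated 3′ end of Gclm.

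Gss, the synthase of the second step, was covered by 42, 23 and 32 reads in knockout and 29, 12 and 49 in WT. Its levels of 6.32, 3.79 and 4.77 CPM in knockout were all below 8.63, 9.59 and 11.1 CPM in WT. Their log2 fold change was -0.98 (SE 0.432, unadjusted p 0.0465, edgeR adjusted p 0.306), and it kept its sign in 18 of 18 alternatives, from -1.18 to -0.57. The 3′ end of Gss lies across that of Acss2 on the opposite strand. Gsr, which regenerates glutathione with NADPH, pointed upward. It had 16.7, 22.4 and 21.2 CPM in knockout, against 8.93, 9.59 and 16.3 in WT, without overlap (log2 fold change 0.76, SE 0.367, edgeR adjusted p 0.342).

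None of the 4 thioredoxin system members had an unadjusted p under 0.05, and 2 had a negative and 2 a positive log2 fold change. Txnrd1, the selenoenzyme that reduces thioredoxin (chromosome 10, 82833951 to 82897712, plus strand), had 146, 106 and 133 CPM in knockout libraries, against 171, 197 and 184 in WT. The groups did not overlap, and the 3 WT values lay close together. The means were 128 CPM in knockout and 184 CPM in WT (n = 3 each), with a log2 fold change of -0.52 (SE 0.247, unadjusted p 0.0615, edgeR adjusted p 0.337). Txn1 had 676, 608 and 913 CPM in knockout, against 589.9, 131 and 582 in WT. These did not overlap either, although knockout replicate 2 and WT replicate 1 were close. Its log2 fold change was 0.75 (SE 0.484, edgeR adjusted p 0.466). The mitochondrial reductase Txnrd2 had 30, 41 and 65 reads in knockout and 9, 2 and 27 in WT (log2 fold change 0.89, SE 0.581, adjusted p 0.471). Srxn1, sulfiredoxin, which repairs over-oxidised peroxiredoxins, had 18.5, 13.0 and 16.4 CPM in knockout, against 22.0, 45.6 and 12.5 in WT. As for Hmox1, WT replicates 1 and 2 were above and WT replicate 3 below the knockout libraries (log2 fold change -0.69, SE 0.455, edgeR adjusted p 0.477).

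NADPH for both systems comes from the pentose phosphate pathway and from malic enzyme, and here the members pointed in opposite directions. Me1, cytosolic malic enzyme (chromosome 9, 86581371 to 86695953, minus strand), had 186, 144 and 116 CPM in knockout libraries, against 86.6, 85.5 and 90.1 CPM in WT. Every knockout library was above every WT library, and the 3 WT libraries, which differed widely for other members, lay together. The mean was 149 ± 35.4 CPM in knockout and 87.4 ± 2.40 CPM in WT (SD, n = 3 each), 1.70-fold higher. On the log2 scale the difference was 0.76 (SE 0.263; unadjusted p 0.0153, edgeR adjusted p 0.239). It was 0.80 against WT replicates 1 and 2 and 0.72 against WT replicate 3, and lay between 0.58 and 1.20 over 18 alternatives, none of which made it pass (smallest adjusted p 0.0802).

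The pentose phosphate enzymes did not follow Me1. G6pdx, the entry enzyme, had 26.5, 26.4 and 18.8 CPM in knockout and 22.6, 29.6 and 21.8 in WT (log2 fold change -0.03, SE 0.310). Pgd, the next NADPH-forming step, had 57.9, 64.5 and 56.8 CPM in knockout, against 127, 79.9 and 74.2 in WT. It was below WT in each knockout library, with a log2 fold change of -0.65 (SE 0.285, unadjusted p 0.0443, edgeR adjusted p 0.303). Limma voom with library quality weights called Pgd lower (adjusted p 0.0251; 0.0251 to 0.792 over the alternatives).

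Taldo1, transaldolase, had 149.7, 148 and 145 CPM in knockout, against 199, 207 and 210.4 in WT. Both groups were tight, at 148 ± 2.15 CPM in knockout and 205 ± 5.96 CPM in WT (SD, n = 3 each), and they did not overlap. With a log2 fold change of -0.48 (SE 0.229) the unadjusted p was 0.0635 and the edgeR adjusted p 0.341. Tkt, transketolase, had 180.4, 128 and 121 CPM in knockout, against 443, 556 and 106 CPM in WT. WT replicates 1 and 2 were far above the knockout libraries and WT replicate 3 was below them. Over all 3 WT libraries the log2 fold change was -1.36 (SE 0.502, unadjusted p 0.0218, edgeR adjusted p 0.246). Without WT replicate 3 it was -1.79 and passed (adjusted p 0.00800; 0.00800 to 0.714 over the alternatives). Against WT replicate 3 alone it was 0.42.

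**Figure D2:**
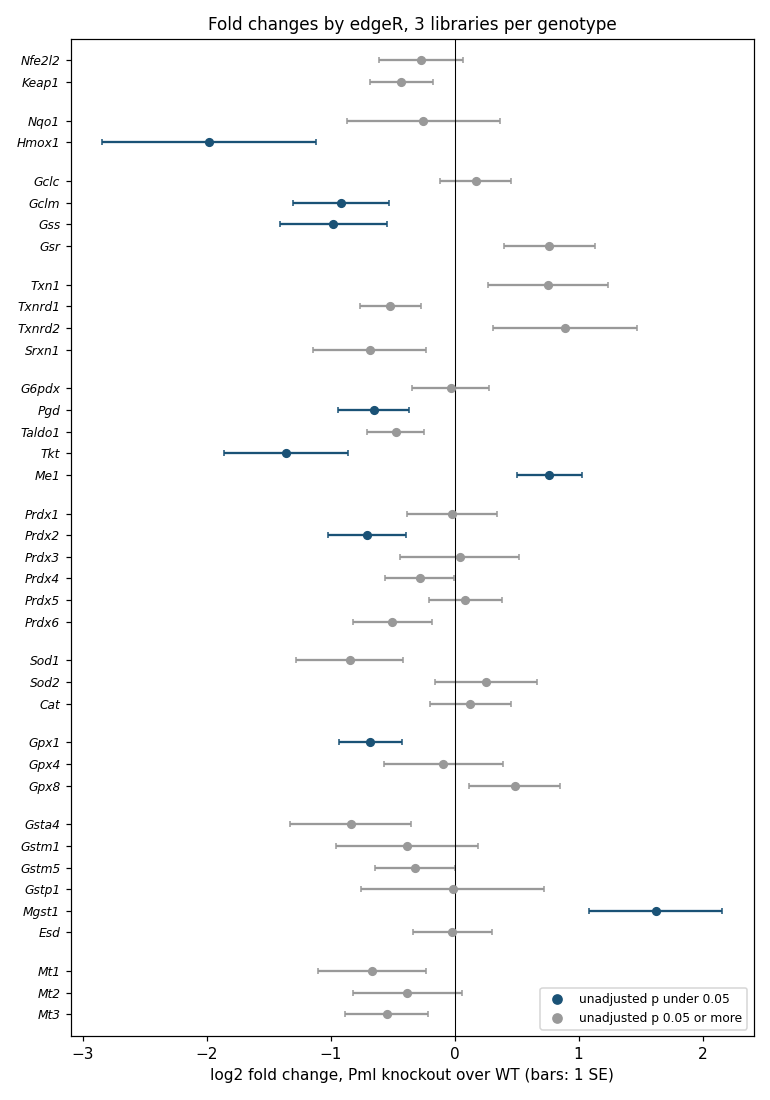
Log2 fold change of Pml knockout over WT for the 38 tested members, grouped by role in the same order; points are edgeR estimates from 3 libraries per genotype and bars are 1 SE. Dark points, 2 right of 0 and 7 left of it, had an unadjusted p under 0.05; none passed after adjustment over 11317 genes.

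Most peroxiredoxins reduce peroxides with electrons from thioredoxin. Among 6 members 1, Prdx2, had an unadjusted p under 0.05. Prdx2 had 344, 312 and 350.2 CPM in knockout libraries, against 484, 792 and 369 in WT. The groups did not overlap, with WT replicate 3 just above knockout replicate 3. The log2 fold change was -0.71 (SE 0.316, unadjusted p 0.0491, edgeR adjusted p 0.314), and against WT replicate 3 alone it was -0.14. The annotated 3′ end of Prdx2 overlaps Junb on the opposite strand, and a processed pseudogene matches its last 300 bases at 97.7%. Prdx1 had 369.7, 333 and 422 CPM in knockout, against 385, 192 and 558 in WT, and the log2 fold change was -0.02 (SE 0.364). For the mitochondrial Prdx3, the endoplasmic reticulum Prdx4, and Prdx5 the fold changes lay between -0.28 and 0.09. Prdx6, which reduces phospholipid peroxides, had 231, 235 and 249 CPM in knockout and 328, 482 and 205 in WT (log2 fold change -0.50, SE 0.321, edgeR adjusted p 0.461).

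Superoxide dismutases turn superoxide into hydrogen peroxide, and catalase and glutathione peroxidases remove it. The cytosolic Sod1 had 584, 378 and 388 CPM in knockout libraries, against 652, 1378 and 402 in WT (log2 fold change -0.85, SE 0.430, edgeR adjusted p 0.363). The mitochondrial Sod2 had 82.3, 67.3 and 91.9 CPM in knockout and 85.1, 24.8 and 89.7 in WT. WT replicate 2 was thus the highest library for Sod1 and the lowest for Sod2. Cat had 70.4, 81.3 and 64.6 CPM in knockout and 39.3, 90.3 and 70.4 in WT, with a log2 fold change of 0.13 (SE 0.325).

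Gpx1 was the glutathione peroxidase with the smallest p. This cytosolic selenoenzyme (chromosome 9, 108338903 to 108340343, plus strand) had 112, 142 and 166 CPM in knockout libraries, against 200.3, 226 and 247 CPM in WT. All knockout libraries were below all WT libraries. The means were 140.1 ± 27.5 CPM in knockout and 224 ± 23.2 CPM in WT (SD, n = 3 each), and the log2 fold change was -0.68 (SE 0.257, unadjusted p 0.0242, edgeR adjusted p 0.253). It was -0.59 against WT replicates 1 and 2 and -0.82 against WT replicate 3. Gpx4, which reduces lipid hydroperoxides in membranes, had 29, 34 and 53 reads in knockout and 28, 7 and 22 in WT. A pseudogene matches its last 300 bases at 99.7%, so reads could be split and the level is uncertain. Gpx8, of the endoplasmic reticulum, had 25.7, 32.3 and 27.9 CPM in knockout and 20.8, 10.4 and 28.4 in WT (log2 fold change 0.48, SE 0.369).

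Glutathione transferases couple glutathione to electrophiles, and none of the 6 tested members passed. Mgst1, a microsomal transferase with peroxidase activity (chromosome 6, 138140316 to 138156755, plus strand), had 162, 362 and 519 reads in knockout libraries, against 57, 7 and 120 in WT. Its levels were 24.4, 59.7 and 77.4 CPM in knockout, against 17.0, 5.60 and 27.2 CPM in WT. Knockout replicate 1 lay below WT replicate 3, so the groups overlapped. The means were 53.8 ± 27.0 CPM in knockout and 16.6 ± 10.8 CPM in WT (SD, n = 3 each), 3.24-fold higher in the knockout. At 1.62 (SE 0.539) its log2 fold change was the highest of the 38 tested members, with an unadjusted p of 0.0130 and an edgeR adjusted p of 0.238. It was positive in 18 of 18 alternatives, from 0.98 to 2.13, and passed without WT replicate 3 (adjusted p 0.0367; 0.0367 to 0.714 over the alternatives). Mgst3 had 10, 13 and 24 reads in knockout and 1, 0 and 3 in WT, without overlap, but was too low to be tested.

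Log2 fold changes of the other 5 tested members, soluble enzymes, were negative, with Gstp1 and Esd at -0.02 and each of the 5 turning sign under at least 1 alternative. Gsta4, which conjugates the lipid peroxidation product 4-hydroxynonenal, had 38.8, 22.4 and 32.4 CPM in knockout libraries, against 49.7, 99.9 and 21.8 in WT (log2 fold change -0.84, SE 0.487, edgeR adjusted p 0.418). Without WT replicate 3 it passed as lower (adjusted p 0.0492; 0.0492 to 0.845 over the alternatives), and against WT replicate 3 alone its log2 fold change was 0.52. Gstm1 had 149, 349 and 320.4 CPM in knockout, against 281, 685 and 108 in WT, so that both groups spread widely. Gstm5 had 54.6, 74.0 and 87.9 CPM in knockout and 77.4, 129 and 65.8 in WT. Gstp1 had 7, 13 and 20 reads in knockout and 4, 4 and 10 in WT. The last 300 bases of Gstp1 are identical to those of Gstp2, so its count is uncertain. Esd, which releases formate from S-formylglutathione, had 106, 95.3 and 102 CPM in knockout and 121, 56.8 and 127 in WT, and 9 processed pseudogenes match its 3′ end.

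**Figure D3:**
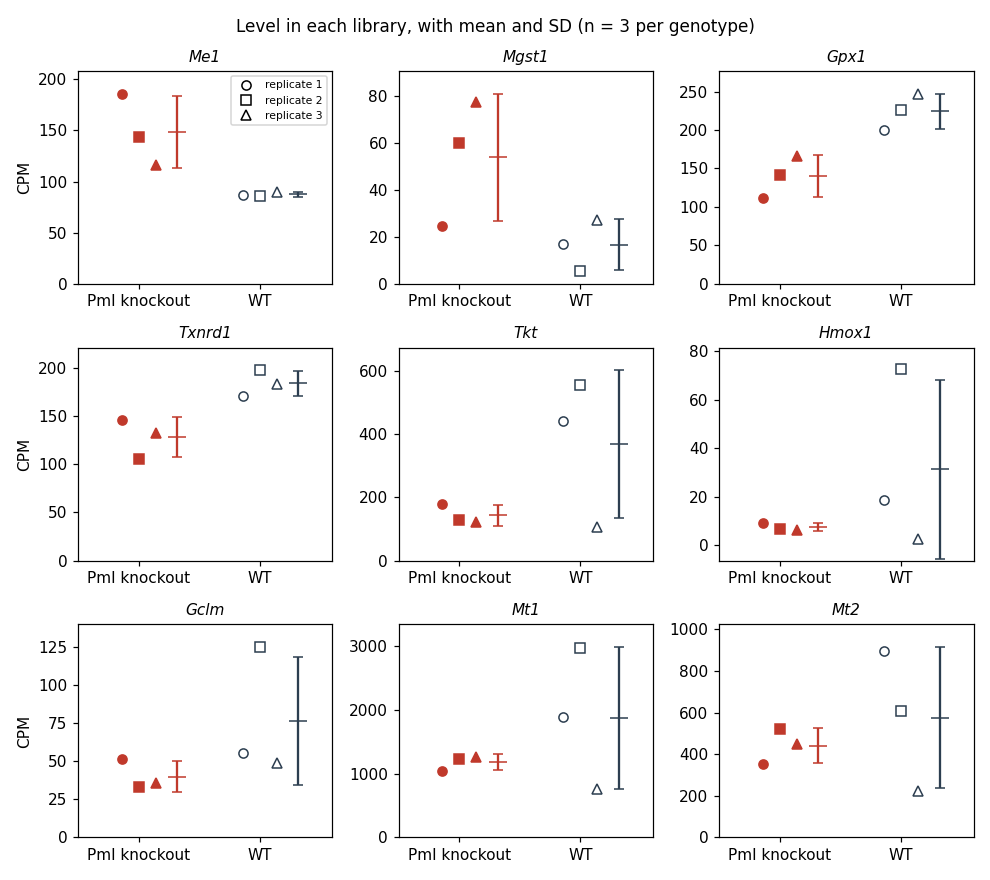
Level in CPM (vertical axes, each with its own scale) of 9 members in Pml knockout (left, filled red) and WT libraries (right, open dark), with symbols for replicates 1 to 3 and the mean with SD beside them. Me1, Gpx1 and Txnrd1 have 3 WT libraries close together, while Tkt, Hmox1, Mt1 and Mt2 have WT replicate 3 below every knockout library and WT replicates 1 and 2 above.

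Metallothioneins took 0.196% to 0.256% of the counts outside Rn45s in knockout libraries, and 0.378%, 0.427% and 0.143% in WT replicates 1, 2 and 3. Mt1 (chromosome 8, 94179082 to 94180327, plus strand) had 1037, 1233 and 1267 CPM in knockout, against 1886, 2981 and 760.0 CPM in WT. The knockout libraries lay within a narrow range that WT libraries bracketed on both sides. Knockout over WT, the log2 fold change was -0.67 (SE 0.436, edgeR adjusted p 0.471). Without WT replicate 3 it was -1.03 and passed (adjusted p 0.0409; 0.0409 to 0.931 over the alternatives), and against WT replicate 3 alone it was 0.63.

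Mt2, its neighbour on chromosome 8 (94172664 to 94173568), repeated the pattern. It had 354, 521 and 451 CPM in knockout libraries, against 896, 608 and 222 in WT, with a log2 fold change of -0.38 (SE 0.439, edgeR adjusted p 0.685). The sign turned with library totals (0.21) and against WT replicate 3 alone (0.99). Mt3, the brain-enriched member, had 50.3, 41.6 and 50.9 CPM in knockout and 103, 60.0 and 45.2 in WT (log2 fold change -0.55, SE 0.335, edgeR adjusted p 0.437). Among further metal-responsive genes 5 of 6 were tested by edgeR, and 0 had an unadjusted p under 0.05. All 5 log2 fold changes were positive, from 0.0053 to 0.96 (median 0.35). Over all tested genes 5622 were above 0 and 5695 below. The zinc importer Slc39a1 had 79.6, 113 and 117 CPM in knockout libraries and 60.7, 15.2 and 80.1 CPM in WT (log2 fold change 0.96, SE 0.471, edgeR adjusted p 0.348). Its groups overlapped, by knockout replicate 1 and WT replicate 3. The zinc exporter Slc30a1 had 17.0, 32.7 and 29.8 CPM in knockout and 12.8, 12.8 and 30.4 in WT. Slc30a10, a manganese exporter, had 13.2, 26.1 and 23.4 CPM in knockout and 18.2, 22.4 and 9.99 in WT. The metal sensor Mtf1 had 19.3, 28.4 and 18.6 CPM in knockout and 19.9, 16.8 and 24.7 in WT (log2 fold change 0.09, SE 0.328).

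The members thus differed in how the WT libraries stood to the knockout libraries, a grouping made after the values were seen. For 7 tested members all WT libraries were above all knockout libraries, namely Keap1, Gss, Txnrd1, Pgd, Taldo1, Prdx2 and Gpx1. For Gsr, Txn1 and Me1 all were below. For 10 members (26.3%), WT replicates 1 and 2 were above the knockout libraries and WT replicate 3 was not, beside 13% of all tested genes. These were Hmox1, Gclm, Srxn1, Tkt, Prdx6, Sod1, Gsta4, Mt1, Mt2 and Mt3. WT replicate 1 was above the knockout libraries for 22 of 38 members and WT replicate 2 for 23, against 10 for WT replicate 3. Over all 11317 tested genes the same counts were 4192, 4429 and 3648 for WT replicates 1, 2 and 3. Without WT replicate 3, 1 of 39 tested members passed as higher (Mgst1, 2.56%, beside 5.01% of genes) and 4 as lower (Hmox1, Tkt, Gsta4 and Mt1, 10.3%, beside 7.97%). Each of those 4 had a positive fold change against WT replicate 3 alone. Voom with library quality weights called 0 members higher (beside 4.36% of genes) and 2 lower (Pgd and Tkt, 5.26%, beside 6.73%). The coefficient of variation of the members had a median of 19.3% in knockout and 42.3% in WT, against 17.2% in knockout and 40.0% in WT over all genes.

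**Figure D4:**
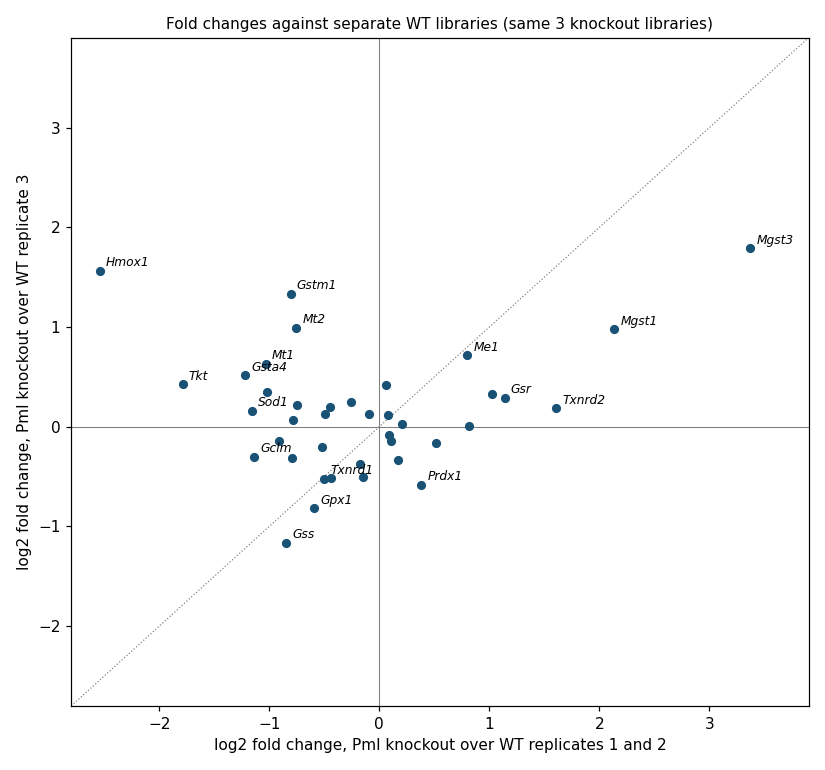
Log2 fold change of the 3 Pml knockout libraries over WT replicates 1 and 2 (horizontal axis) and over WT replicate 3 alone (vertical axis) for the 39 members; both axes share the knockout libraries, and the dotted line marks equal values. Hmox1, Tkt, Gsta4, Mt1 and Mt2 lie upper left, with opposite signs, while Me1, Mgst1 and Gsr lie upper right and Gpx1, Gss and Txnrd1 lower left, with the same sign on both axes.

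Further NRF2 partners and targets gave a mixture too, with 0 genes passing by edgeR. Of 33 listed, 26 were tested, 1 was higher (3.85%, beside 6.7% of all genes) and 3 lower (11.5%, beside 9.19%) at an unadjusted p under 0.05, and the median log2 fold change was -0.16. Osgin1, an oxidative stress-induced growth inhibitor, had 18, 4 and 11 reads in knockout libraries, against 36, 33 and 31 in WT. These are 2.71, 0.660 and 1.64 CPM in knockout, against 10.7, 26.4 and 7.04 CPM in WT, without overlap (log2 fold change -3.04, SE 0.680, unadjusted p 0.00116, edgeR adjusted p 0.197). Slc3a2, the heavy chain of several amino acid exchangers, had 419, 401 and 320.1 CPM in knockout, against 250.3, 170.3 and 195 in WT. It was the gene on the higher side (log2 fold change 0.89, SE 0.266, edgeR adjusted p 0.220). Its partner in the cystine importer, Slc7a11, named after its values were seen, had 129, 155 and 149 reads in knockout and 47, 22 and 58 in WT; its levels in CPM did not overlap either (log2 fold change 0.61, edgeR adjusted p 0.376). The haem transporter Slc48a1 had 60.6, 57.1 and 69.8 CPM in knockout and 106, 333 and 46.8 in WT. Blvra, which reduces the biliverdin that Hmox1 forms, had 9.93, 6.43 and 9.10 CPM in knockout and 19.9, 13.6 and 13.2 in WT.

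Of 34 further redox and glutathione genes 26 were tested by edgeR, with 2 higher (7.69%, beside 6.7% of all genes) and 7 lower (26.9%, beside 9.19%) at an unadjusted p under 0.05 and 0 passing. Fold changes were negative for 19 of them and positive for 7, with a median of -0.69 (log2). Glrx3, an iron-sulfur glutaredoxin, had 183, 116 and 133 CPM in knockout libraries, against 277, 677 and 196 in WT (log2 fold change -1.40, edgeR adjusted p 0.228). Txn2, mitochondrial thioredoxin, had 91.2, 83.6 and 88.3 CPM in knockout and 157, 217 and 111 in WT (log2 fold change -0.88, edgeR adjusted p 0.238). Neither gene's groups overlapped. Gstz1, of tyrosine breakdown, had 28.4, 21.6 and 24.3 CPM in knockout and 65.8, 97.5 and 24.7 in WT, where WT replicate 3 was just above knockout replicate 3 and below knockout replicate 1. Selt, a selenoprotein of the endoplasmic reticulum, went the other way, with 686, 752 and 884 reads in knockout and 205, 40 and 345 in WT and no overlap in CPM (log2 fold change 1.05, edgeR adjusted p 0.231).

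A further list held 13 genes of NADPH supply and of pentose and ribose phosphate handling, not all of which form NADPH. By edgeR 12 were tested, 0 passed, and the median log2 fold change was -0.17. At an unadjusted p under 0.05, 1 was higher (Nnt, 8.33%, beside 6.7% of all genes). On the lower side were 3, namely Pgls, Prps1 and Rpia (25%, beside 9.19%). Nnt, the mitochondrial transhydrogenase that makes NADPH, had 23.9, 17.1 and 22.7 CPM in knockout libraries, against 8.93, 7.99 and 7.72 in WT. As with Me1, the WT libraries lay together and below every knockout library (log2 fold change 1.37, SE 0.344, unadjusted p 0.00253, edgeR adjusted p 0.206). Pgls, the pentose phosphate step between G6pdx and Pgd, had 80.5, 70.1 and 77.3 CPM in knockout, against 295, 353 and 88.8 in WT. Prps1, which draws ribose phosphate into nucleotide synthesis, had 71.6, 49.1 and 71.6 CPM in knockout and 138, 138 and 103 in WT. Both lay below WT in each knockout library, with log2 fold changes of -1.69 and -0.97 and edgeR adjusted p of 0.208 and 0.212. Rpia, the ribose phosphate isomerase, had 9.48, 6.93 and 9.25 CPM in knockout and 8.63, 17.6 and 26.8 in WT.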

How the data were processed

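The authors deposited 1 table with unnormalized read counts by gene symbol in 6 libraries. Beside the counts stand the authors' own log2 fold change, p-value and adjusted p-value, per the file headers. A further 6 columns of the authors' normalized values per sample were not used. Per the submitters' processing notes, FastQC, HISAT2, HTSeq, edgeR and build mm10 were used; their versions, the gene annotation and any strand option were not given there. Libraries of 3′ tags (QuantSeq forward) were made from RNA of integrity above 7 and amplified for 20 to 24 cycles, per the labels' protocols. All libraries share 1 batch date.

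Counts were fitted in R 4.3.3 with edgeR 4.0.16 (robust quasi-likelihood test, trimmed mean of M values, filter at a count of 10 and a total of 15), which left 11317 genes; 8329 genes had no reads. P-values were adjusted by Benjamini-Hochberg over all tested genes, with a threshold of 0.05. The SE is the size of the log2 fold change divided by the square root of F. CPM uses the library factors. The script was tested on simulated data. Total counts per library were 1775152 to 5917505, and no molecular identifiers are named, so reads may not be independent molecules.

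Every member is accounted for. Per-library values with tests are given for members at an unadjusted p under 0.05 and for Nfe2l2, Keap1, Nqo1, Hmox1, Gclc, Gclm, Srxn1, Txnrd1, Mt1, Mt2 and Mt3; other members are given more briefly, and up to 4 genes per further list are named by smallest p. The members and lists were chosen with earlier results of these data known. Alternatives were DESeq2 1.42.0, limma 3.58.1 (voom), 3 scalings, 2 filters, the edgeR exact test, the replicate number as a block, and libraries left out. Coordinates are from GENCODE M21 (GRCm38, the assembly mm10 names), promoters from RefSeq (GRCm38.p6). Near-identical copies were sought with blastn 2.17.0 for the last 300 bases of each transcript (at least 95% identity over 100 bases), and 9 members had a match at another gene or an overlapping one. Duplicate libraries were checked, and no pair of one genotype agreed within sampling noise.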

Additional observations from a re-analysis of the deposited data

How the results depend on the processing

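Among 18 named members and 18 alternatives (17 for Nqo1, too low for the 5 CPM filter), 302 values kept the direction and the side of the threshold, 6 passed where the main analysis did not, and 15 turned sign. With WT replicates 1 and 2 both left out, log2 fold changes turned for Nfe2l2 (0.19), Hmox1 (1.57), Srxn1 (0.35), Tkt (0.42), Mt1 (0.63), Mt2 (0.99) and Mt3 (0.070), and the members' median was 0.13. With library totals, which move the median of all genes to 0.43, Nfe2l2 (0.24), Keap1 (0.055), Nqo1 (0.17) and Mt2 (0.21) turned and the members' median was 0.21. With voom quality weights Nfe2l2 was 0.014. Leaving out single libraries gave -0.45 to 0.20 for Nfe2l2, -0.57 to 0.012 for Nqo1, and -0.76 to 0.12 for Mt2, and the members' median ran from -0.44 to -0.14.

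Over all genes, edgeR called 1 higher and 0 lower (unadjusted p under 0.05 in 1798 genes). Higher and lower counts were 105 and 223 by DESeq2, 147 and 211 by the exact test, 493 and 762 by voom with quality weights, and 91 and 51 without WT replicates 1 and 2. The higher count was 0 with DESeq2 size factors, library totals, a minimum of 5 CPM, voom, and no Rn45s row. The lower count was 2 with no count filter and 1 with the replicate block. Leaving out single libraries gave 0 to 589 higher and 0 to 937 lower. Members passing were 2 lower by voom with quality weights, and 0 to 1 higher and 0 to 4 lower with single libraries left out. At an unadjusted p under 0.05 (2 higher, 7 lower), quality weights gave 4 and 11. The lower count was 4 with upper quartile factors, no filter or voom, 0 with library totals and 2 with the block. Single libraries left out gave 1 to 6 higher and 0 to 13 lower, beside 2.44% to 15.4% and 4.1% to 16.5% of all genes. For the other alternatives no share of all genes at this threshold is given, so those member counts cannot be read as particular to the members. The cause of these shifts was not tested.

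The samples share only a replicate number and no pairing: deviations of same-numbered libraries correlated at -0.0025, 0.067 and 0.188 across genes, and while knockout replicates 2 and 3 correlated best with their own number, knockout replicate 1 did so with WT replicate 2 (0.087). The block left 0 members passing. Depth limits Nqo1, Hmox1, Gss, Txnrd2, Gstp1, Gpx4 and Mgst3, each under 100 reads in every library, with WT replicate 2 at 1775152 counts the shallowest.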
